A study of Homo sapiens with 12 samples.

Results

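Gene expression in K562 cells that had received a lentivirus was set against that in K562 cells that had received a plasmid by nucleofection. The 6 lentiviral and 6 nucleofected arrays were chosen by their group labels and make up all 12 of the 12 arrays of the study. K562 is an established human leukaemia line, derived from a chronic myelogenous leukaemia in blast crisis and labelled by the submitters as AML. The nucleofected cells carried either the empty pEGFP-C2 vector or human CXXC5 inserted into that vector (pEGFP-CXXC5), introduced transiently with a Lonza Nucleofector II. The lentiviral cells were stably infected with pLKO carrying either a scrambled shRNA or shRNA against CXXC5, for which a pair of clones is named without saying which sample held which. There were 3 arrays per group. Every group was kept in serum-free medium with Wnt3a at 100 ng/ml and gave total RNA after 8 h, and no group without Wnt3a or without a vector was analysed here. The question was which genes stood higher or lower with both lentiviral vectors than with both plasmids, whatever the CXXC5 label. Mode of delivery, stable against transient carriage, vector backbone, and any culture or labelling batch that went with them cannot be told apart in this design.

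A lentivirus integrates its genome and leaves a lasting line, whereas nucleofection drives plasmid DNA into the nucleus with an electric pulse and the plasmid is lost over time. Cells sense foreign DNA and double-stranded RNA through dedicated receptors that can induce interferon-stimulated genes. Shortage of amino acids or stress raises the transcription factor ATF4 and its targets, low oxygen raises targets of HIF1, and low sterol levels activate the SREBP factors, which switch on cholesterol and fatty acid synthesis.

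Array medians of the deposited log2 values lay between 6.65 and 6.71, so the arrays had been put on a common scale. Of 11 measured genes of the K562 identity list, which holds erythroid factors, globins, BCR and ABL1, 10 were above the median gene. With 0 probe sets paired with CXXC5, the CXXC5 labels could not be checked, and CXXC5 itself was not analysed here. The summed level of 26 lymphoid markers was 11.59 to 12.01 log2 in nucleofected arrays and 11.64 to 12.09 in lentiviral arrays. That of 30 fibroblast, endothelial and epithelial markers was 13.73 to 13.80 and 13.70 to 13.92. Of these 30 markers 10 were higher and 2 lower in lentiviral cells (called at an adjusted p under 0.05 in limma), and 4, FN1, TEK, NEFM and FAP, were higher in all 6 lentiviral arrays, at 33.3% and 13.3% against 16.1% and 4.41% of all genes. For TEK the other probe set gave -0.01. Of the lymphoid markers 4 were called higher (15.4%) and 3 lower (11.5%), beside 16.1% and 11.7% of all genes. In the K562 identity list 5 of the 11 genes were called higher (45.5%) and 2, BCR and GATA1, lower (18.2%). BCR also lay just below the median gene, at the 49.3 percentile. The part of other cell types in the results was not tested. Control probe sets did differ with delivery. For the dap RNA, a bacterial transcript spiked into every sample, the 3′ probe set exceeded the 5′ probe set by 3.05 to 3.34 log2 in nucleofected arrays and by 3.50 to 4.66 in lentiviral arrays, or 3.50 to 3.87 without scrambled shRNA replicate 3. For the lys spike-in the ranges were 1.24 to 1.45 and 1.49 to 1.82. The spike-ins come from no cell, and their 3′ excess reads out labelling and hybridisation. The control probe set for the 5′ end of 28S ribosomal RNA also separated the arrays, at 12.76 to 13.17 in nucleofected and 11.67 to 12.40 in lentiviral arrays. The part of these differences in the results that follow was not tested. GAPDH, whose 3′ excess is a common sign of RNA integrity, overlapped between deliveries but reached 0.87 in scrambled shRNA replicate 3 against 0.23 to 0.34 in the other arrays.

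**Figure D1:**
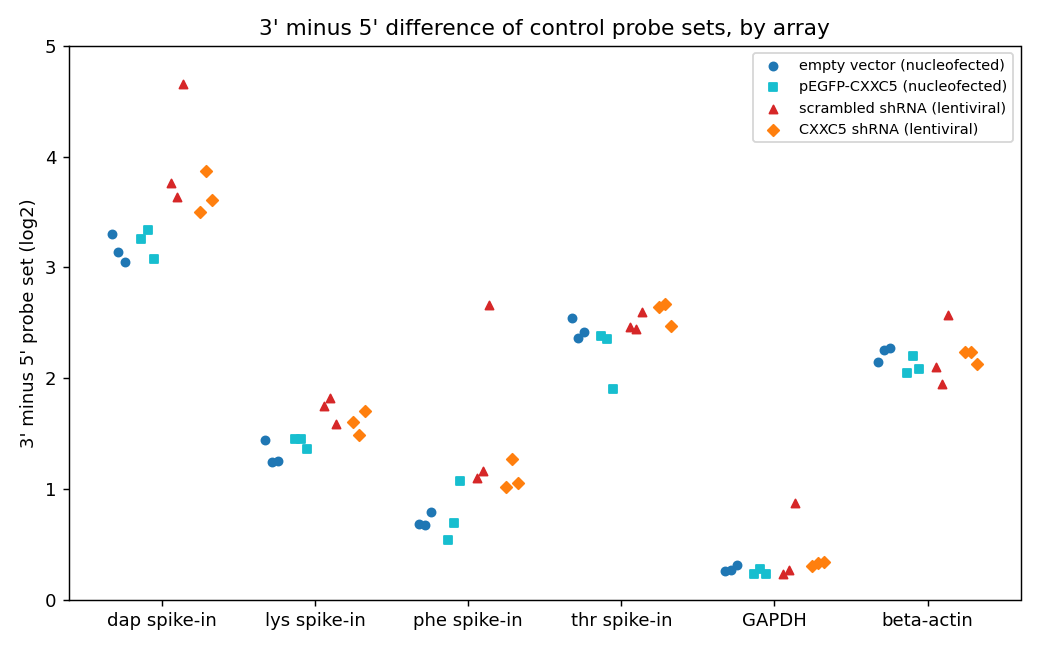
Difference between the 3′ and 5′ probe set (log2) of 4 spiked-in bacterial RNAs and 2 cellular genes, 1 point per array in 4 groups of 3. For dap and lys all 6 lentiviral points lie above all 6 nucleofected points, and scrambled shRNA replicate 3 is the highest for dap (4.66), phe (2.66) and GAPDH (0.87).

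Over 11963 genes, 3323 (27.8%) differed between lentiviral and nucleofected cells at an adjusted p under 0.05 in limma, with a coefficient for each of the 4 groups. Of these, 1924 (16.1%) were higher and 1399 (11.7%) were lower in lentiviral cells, a split of 57.9% higher that was 50.8% under quantile normalization. The differences were small, with a median size of 0.251 log2 among the genes called, and 14 genes reached 2-fold, 7 in each direction. A gene was counted as shifted alike where it was called and where all 6 lentiviral arrays lay on the same side of all 6 nucleofected arrays. There were 848 such genes (7.09%), of which 528 (4.41%) were higher and 320 (2.67%) were lower, and 9 of them reached 2-fold. Their split of 62.3% higher was 53.1% under quantile normalization. Among genes whose arrays did not overlap, ABO lay just inside the threshold with a change of 0.19 at an adjusted p of 0.049, and QKI just outside it with 0.11 at 0.0505. Leaving out scrambled shRNA replicate 3 gave 3086 genes called and 990 shifted alike.

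Most genes called in the pooled comparison were therefore not shifted alike. Of the 2475 called genes whose arrays overlapped, 898 had a lentiviral difference of another size in the CXXC5 pair than in the control pair, by a test of that difference. That test called 2442 genes (20.4%) in all, and 75 of the 848 genes shifted alike were among them. Scrambled shRNA minus empty vector called 3768 genes (31.5%) and CXXC5 shRNA minus pEGFP-CXXC5 called 1835 (15.3%). These pairs share no array. They called 382 genes in the same direction, which is 10.1% of the first list and 20.8% of the second, and 457 in opposite directions, which is 12.1% and 24.9%. Scrambled shRNA minus pEGFP-CXXC5 called 2154 genes (18%) and CXXC5 shRNA minus empty vector called 543 (4.54%). In all 4 pairwise comparisons 184 genes (1.54%) were called the same way, 128 higher and 56 lower. Treating the 4 groups as draws that vary among themselves, with the group as a random block, left 366 genes (3.06%) called, of which 332 were among those shifted alike. That fit gave every gene the same correlation within groups, 0.253, and still counted arrays, so it did not test 2 groups against 2. Genes whose groups lay far apart could still be called. Counts with this block for single lists are to be read beside the 3.06%, with 240 called higher and 126 lower over all genes.

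**Figure D2:**
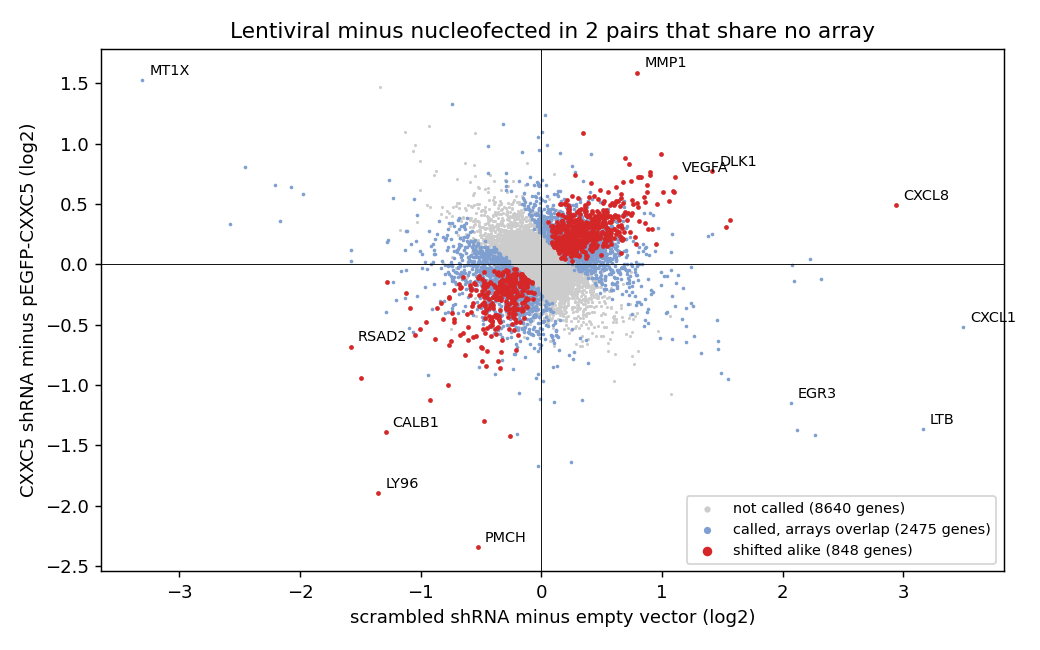
Change in log2 level of each of 11963 genes for scrambled shRNA minus empty vector (x axis) and CXXC5 shRNA minus pEGFP-CXXC5 (y axis), pairs that share no array. The 848 genes shifted alike (red) fill the lower left and upper right, while LTB, CXCL1, EGR3 and MT1X lie in the other quadrants, with opposite signs.

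CXCL8, the neutrophil chemokine interleukin 8, had the largest increase among genes shifted alike. It read 9.04, 8.71 and 8.79 log2 with empty vector and 9.18, 9.03 and 9.01 with pEGFP-CXXC5. The readings were 11.65, 11.84 and 11.87 with scrambled shRNA and 9.64, 9.36 and 9.70 with CXXC5 shRNA. No lentiviral array reached down to a nucleofected one, but the scrambled shRNA arrays stood far above the CXXC5 shRNA arrays. The pooled change was 1.72 log2 (SE 0.0766, 3.29-fold, limma adjusted p = 2.22e-07), made of 2.94 in the control pair and 0.49 in the CXXC5 pair. A second probe set for CXCL8 gave 0.92.

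MMP1, interstitial collagenase, showed the reverse order of the lentiviral groups. Its values were 3.59, 3.35 and 3.55 with empty vector, 3.21, 3.38 and 2.85 with pEGFP-CXXC5, 4.60, 4.20 and 4.07 with scrambled shRNA and 4.76, 4.62 and 4.83 with CXXC5 shRNA. The change was 1.19 (SE 0.104, 2.28-fold, limma adjusted p = 2.98e-05). These readings are close to the bottom of the deposited range, which ran from 2.07 to 14.4, and no detection calls were used here. FN1, fibronectin of the extracellular matrix, was 10.74 to 10.77 with empty vector, 10.21 to 10.32 with pEGFP-CXXC5, 11.62 to 11.68 with scrambled shRNA and 10.97 to 11.06 with CXXC5 shRNA. Its change was 0.82 (SE 0.0383), at 0.90 and 0.74 in the pairs, and 3 of 5 other probe sets gave 0.87 to 0.90 while the remaining ones gave 0.15 and 0.08. PRG2, the eosinophil granule major basic protein, was higher by 0.92 (SE 0.0501). TUBB2B, a beta-tubulin, was higher by 0.95 (SE 0.0852), read by a probe set that can match other tubulins. CFB, complement factor B, was higher by 0.80 (SE 0.0634), but its other probe set gave -0.05. ATP8B1, a phospholipid flippase, was higher by 0.78 (SE 0.125).

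**Figure D3:**
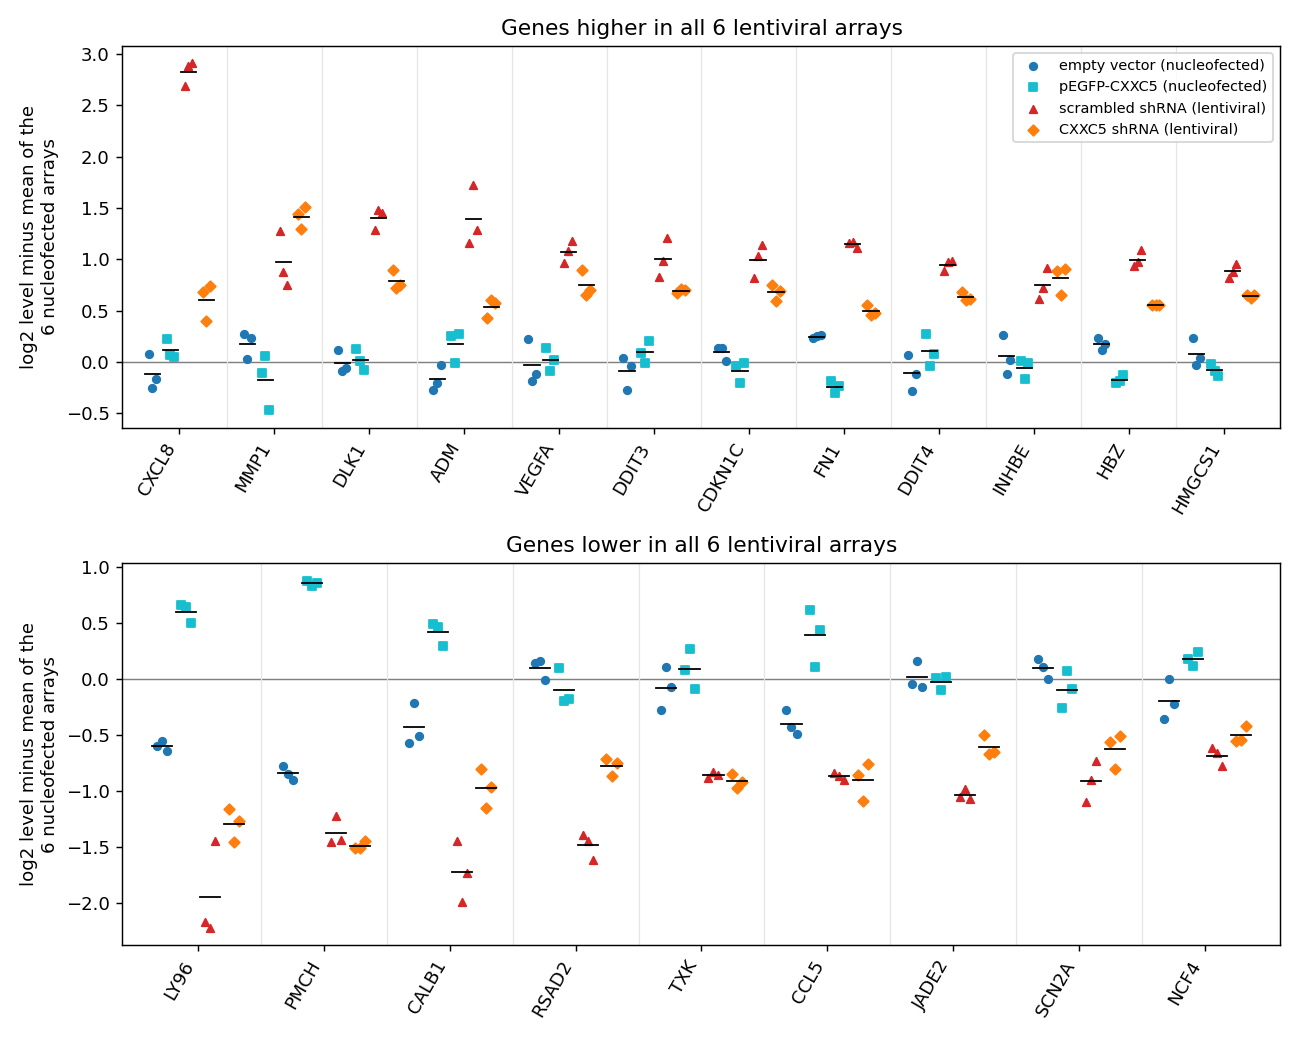
Log2 level of 12 genes higher (top) and 9 genes lower (bottom) in all 6 lentiviral arrays, each centred on the mean of the 6 nucleofected arrays. Points are arrays and black bars are means of 3. CXCL8 reaches 11.87 in scrambled shRNA and 9.36 to 9.70 in CXXC5 shRNA, while VEGFA, CDKN1C, INHBE and HMGCS1 stand at closer heights in both lentiviral groups.

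Of 31 measured genes of the ATF4 and amino acid response, 19 were higher and 1 was lower in lentiviral cells, beside 16.1% and 11.7% of all genes, and 11 were shifted alike, all higher, against 4.41% over all genes. The list's median change was 0.223 log2, beside 0.0102 over all genes. It was 0.244 in the control pair and 0.271 in the CXXC5 pair. However, 12 of the 31 had a change of another size in one pair than in the other, beside 20.4% of all genes. DDIT3, the stress transcription factor CHOP, read 9.42, 9.11 and 9.34 with empty vector and 9.47, 9.37 and 9.58 with pEGFP-CXXC5, against 10.21, 10.36 and 10.59 with scrambled shRNA and 10.05, 10.09 and 10.08 with CXXC5 shRNA. The lentiviral arrays did not overlap the nucleofected ones, and the change was 0.85 (SE 0.072, limma adjusted p = 2.38e-05). DDIT4, an inhibitor of mTORC1 signalling, was 11.44 to 11.99 in nucleofected and 12.32 to 12.70 in lentiviral arrays, a change of 0.79 (SE 0.0669). ATF3, a stress-induced repressor, was 7.50 to 8.15 and 8.22 to 8.79, a change of 0.72 (SE 0.0718) that was 0.35 in the control pair and 1.09 in the CXXC5 pair. SLC7A11, the cystine importer, was higher by 0.70 (SE 0.0658), with 0.54 and 0.13 from its other probe sets. INHBE, an activin subunit outside the list, was 7.46 to 7.89 and 8.24 to 8.55, higher by 0.79 (SE 0.079). With the group as a random block, 8 genes of the list were called, all higher.

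The hypoxia and glycolysis list had 19 of 39 measured genes higher (48.7%) and 1 lower (2.56%), beside 16.1% and 11.7% of all genes. Of the 39, 10 were shifted alike, all higher (25.6%, beside 4.41%), and the median was 0.155. The median was 0.144 in the control pair and 0.0545 in the CXXC5 pair, and 5 genes were called, all higher, with the group as a random block. VEGFA, the angiogenic growth factor, belongs to this list and to the ATF4 list. It read 10.27, 9.86 and 9.93 with empty vector, 10.19, 9.96 and 10.07 with pEGFP-CXXC5, 11.01, 11.13 and 11.23 with scrambled shRNA and 10.95, 10.70 and 10.75 with CXXC5 shRNA. Every lentiviral array was above every nucleofected array, by a pooled change of 0.92 (SE 0.0781, 1.89-fold, limma adjusted p = 2.44e-05), and its 3 other probe sets gave 0.50, 0.51 and 0.81. ADM, the vasodilator peptide adrenomedullin, was 4.99 to 5.53 and 5.69 to 6.98, with 1.56 in the control pair and 0.36 in the CXXC5 pair. The latter was not called, at an adjusted p of 0.085. ALDOC, an aldolase of glycolysis, was 8.14 to 8.68 and 9.0 to 9.56, a change of 0.85 (SE 0.102). P4HA1, a subunit of collagen prolyl hydroxylase, was higher by 0.58 (SE 0.0914). Of the NRF2 and oxidative stress list, 13 of 29 genes were higher (44.8%, beside 16.1% of all genes) and 1 was lower (3.45%, beside 11.7%). The median was 0.119, 2 were shifted alike, both higher (6.9%, beside 4.41%), and 1 was called with the random block. Without scrambled shRNA replicate 3 the number shifted alike was 8, all higher, beside 602 alike and higher among all 11963 genes.

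The sterol and fatty acid list had the largest share of genes shifted alike of the 34 lists. Of 30 genes measured, 21 were higher (70%) and 2 were lower (6.67%), beside 16.1% and 11.7% of all genes. There were 15 shifted alike and higher (50%), beside 4.41% of all genes. The 1 shifted alike and lower (3.33%, beside 2.67%) was the phosphomevalonate kinase PMVK, singled out after its value of -0.18 was seen. The median was 0.196, at 0.299 in the control pair and 0.201 in the CXXC5 pair, and 11 genes were called, all higher, with the group as a random block. HMGCS1, the cytosolic HMG-CoA synthase at the entry of the mevalonate pathway, read 10.73, 10.47 and 10.54 with empty vector and 10.48, 10.41 and 10.36 with pEGFP-CXXC5. It read 11.32, 11.38 and 11.45 with scrambled shRNA and 11.15, 11.12 and 11.15 with CXXC5 shRNA. Every lentiviral array lay above every nucleofected one, with scrambled shRNA above CXXC5 shRNA. The change was 0.76 (SE 0.0513, 1.70-fold, limma adjusted p = 3.84e-06), with 0.76 from its other probe set. It was 0.97 for scrambled shRNA minus pEGFP-CXXC5 and 0.56 for CXXC5 shRNA minus empty vector. MSMO1, a sterol C4 methyl oxidase, was 10.01 to 10.37 and 10.52 to 11.03, a change of 0.61 (SE 0.0491). HSD17B7, which acts in the same demethylation step, was 9.36 to 9.58 and 9.81 to 10.10, a change of 0.49 (SE 0.0555). INSIG1, which retains the SREBP escort protein in the endoplasmic reticulum and is itself an SREBP target, was called at 0.61 (SE 0.0534) without being shifted alike. It was 10.05 to 10.34 with empty vector, 10.67 to 10.79 with pEGFP-CXXC5, 11.37 to 11.50 with scrambled shRNA and 10.66 to 10.75 with CXXC5 shRNA, so that its change was 1.24 in the control pair and -0.02 in the CXXC5 pair.

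SREBP factors bind sterol regulatory elements together with NF-Y at CCAAT boxes, so stretches of the promoters of HMGCS1 and HSD17B7 are shown for these motifs. Sequences and coordinates are RefSeq's, in GRCh38.p14, written 5′ to 3′ on the strand of the gene, with the motif matches in capitals. The HMGCS1 stretch is chr5:43313496-43313579, minus strand, from 167 to 84 bases before the start, with 2 CCAAT boxes in reverse (ATTGG). The HSD17B7 stretch is chr1:162790592-162790666, plus strand, from 110 to 36 bases before the start, with 1 match to TCACNCNAC and 1 CCAAT box in reverse.
HMGCS1: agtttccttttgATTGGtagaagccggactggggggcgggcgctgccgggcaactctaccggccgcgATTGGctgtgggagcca
HSD17B7: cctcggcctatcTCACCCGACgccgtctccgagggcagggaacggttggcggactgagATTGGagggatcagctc
In the 250 bases before the start, on both strands, CCAAT was found in 21 of 28 genes of the list with a promoter sequence (75%) and in 42.4% of 9563 genes. Among the list's 15 genes shifted alike with a promoter sequence, 13 held it. The looser sterol element TCACNCNAC was found in 5 of the 28 (17.9%) and in 2.68% of all genes. HMGCS1 was not among these 5. Of the list's 15 genes shifted alike, 3 held the element, beside 27 of 673 (4.01%) among all genes shifted alike with a promoter sequence. For ATF4 targets, the composite C/EBP-ATF site TGATGNAA was found in 5 of 26 (19.2%) against 3.01% of all genes. It was in 1 of the 8 shifted alike that had a promoter sequence, beside 17 of 673 (2.53%) among all genes shifted alike. A match is a description of these letters, not a site shown to be bound.

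**Figure D4:**
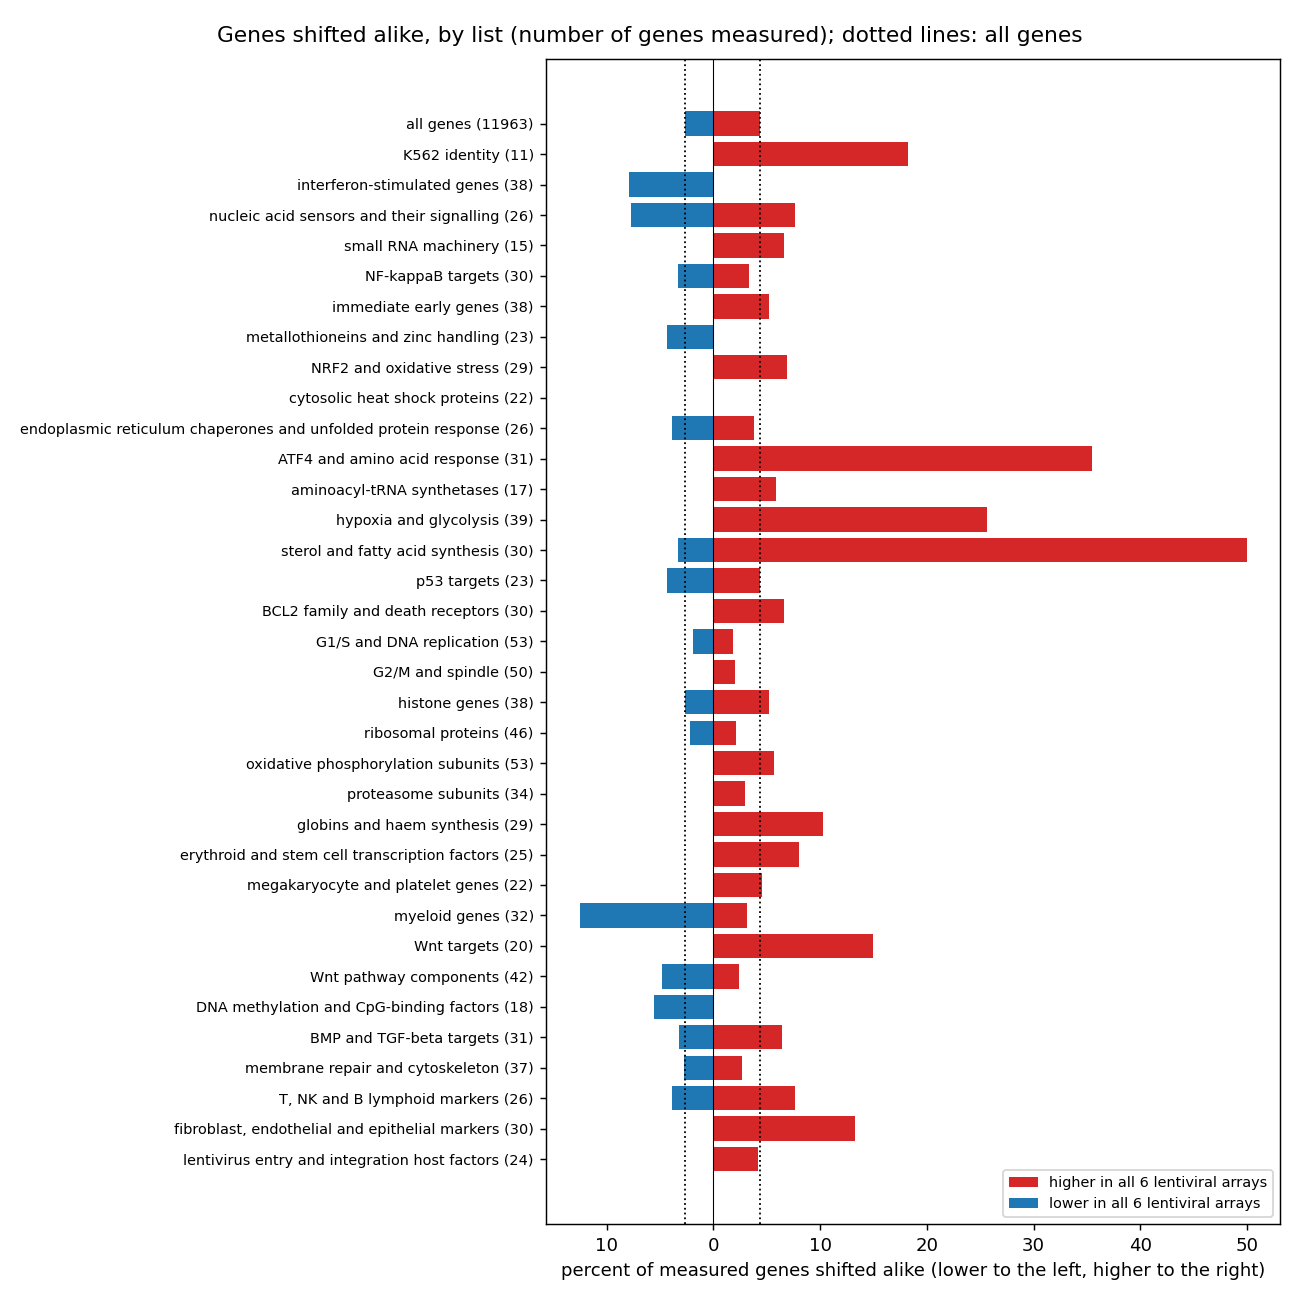
Percent of the measured genes of each list that were shifted alike, higher (red, to the right) or lower (blue, to the left) in all 6 lentiviral arrays, with the number of genes measured beside each list and dotted lines at the shares over all genes, 4.41% and 2.67%. The sterol, ATF4 and hypoxia lists extend farthest to the right, with 15, 11 and 10 genes, and the myeloid list farthest to the left, with 4.

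DLK1, an imprinted gene for a Notch-related membrane protein, read 8.97, 8.76 and 8.79 with empty vector, 8.98, 8.86 and 8.77 with pEGFP-CXXC5, 10.14, 10.33 and 10.30 with scrambled shRNA and 9.75, 9.57 and 9.60 with CXXC5 shRNA. The nucleofected groups were level and both lentiviral groups stood above them, by 1.10 log2 (SE 0.0598, 2.14-fold, limma adjusted p = 6.3e-07). CDKN1C, the cell cycle inhibitor p57, also imprinted, was 8.69 to 9.04 and 9.49 to 10.04, a change of 0.83 (SE 0.0624), and its 4 other probe sets gave 0.46 to 0.55. MEG3, a long non-coding RNA gene next to DLK1 on chromosome 14, was higher by 0.73 (SE 0.0907), with 0.55 from its other probe set. GRB10 on chromosome 7, an adaptor of insulin receptor signalling, was higher by 0.36 (SE 0.0505), although its other probe sets gave 0.02 to 0.27. PHLDA2, near CDKN1C on chromosome 11, was not shifted alike, with 0.72 in the control pair and -0.04 in the CXXC5 pair. Its other probe set gave a pooled change of 0.0. MEG3, GRB10 and PHLDA2, further imprinted genes, were chosen after their values were seen, and imprinted genes as a class were not counted or tested.

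Among erythroid genes, HBZ, the embryonic zeta-globin that K562 cells express, was 12.17 to 12.28 with empty vector, 11.84 to 11.92 with pEGFP-CXXC5, 12.98 to 13.14 with scrambled shRNA and 12.60 with CXXC5 shRNA. The change was 0.77 (SE 0.0421, limma adjusted p = 6.3e-07), at 0.82 and 0.72 in the pairs. Of 29 globin and haem synthesis genes, 8 were higher (27.6%, beside 16.1% of all genes) and 2 were lower (6.9%, beside 11.7%). Shifted alike were 3, all higher (10.3%, beside 4.41%), and the median was 0.0524. With the group as a random block 2 were called, both higher. SAT1, the enzyme that acetylates spermidine for polyamine breakdown, was higher by 0.72 (SE 0.0722), and its other probe sets gave 0.70 and 0.62. SMAD6, an inhibitor of BMP signalling, was higher by 0.56 (SE 0.0536), with 0.25 to 0.29 from its other probe sets.

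For LY96, PMCH, CALB1 and HNMT, the 4 largest decreases among genes shifted alike, the pEGFP-CXXC5 arrays also stood above the empty vector arrays. LY96, the MD-2 coreceptor of TLR4, read 6.07, 6.12 and 6.03 with empty vector, 7.33, 7.31 and 7.17 with pEGFP-CXXC5, 4.50, 4.45 and 5.22 with scrambled shRNA and 5.51, 5.21 and 5.40 with CXXC5 shRNA. All 6 lentiviral arrays were below all 6 nucleofected arrays, although the nucleofected groups themselves were more than 1 log2 apart. LY96 fell by 1.62 (SE 0.115, limma adjusted p = 6.46e-06), or 3.08-fold. PMCH, the precursor of melanin-concentrating hormone, was 5.60 to 5.72 with empty vector, 7.33 to 7.38 with pEGFP-CXXC5, 5.04 to 5.28 with scrambled shRNA and 4.99 to 5.05 with CXXC5 shRNA. Its pooled change of -1.44 (SE 0.0485) was -0.53 in the control pair and -2.35 in the CXXC5 pair. CALB1, the calcium buffer calbindin, differed by -1.34 (SE 0.098), with -1.15 from its other probe set and near-equal changes of -1.29 and -1.39 in the pairs. Its means were 6.70 with empty vector, 7.55 with pEGFP-CXXC5, 5.41 with scrambled shRNA and 6.16 with CXXC5 shRNA. Scrambled shRNA minus pEGFP-CXXC5 was therefore -2.14, and CXXC5 shRNA minus empty vector only -0.54. CCL5, the chemokine RANTES, differed by -0.88 (SE 0.0844), with -0.88 from its other probe set. PRSS2, a trypsinogen read by a probe set that can match its close paralogues, differed by -0.84 (SE 0.0609), and its call was lost with the group as a random block, at an adjusted p of 0.0538.

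Further lower genes are given with the readings of their other probe sets, where they had any. TXK, a Tec-family tyrosine kinase of T cells, read 5.73, 6.12 and 5.94 with empty vector, 6.09, 6.28 and 5.92 with pEGFP-CXXC5, 5.13, 5.18 and 5.15 with scrambled shRNA and 5.16, 5.04 and 5.09 with CXXC5 shRNA. All 6 lentiviral readings lay between 5.04 and 5.18, below every nucleofected one, while the nucleofected groups overlapped, a change of -0.89 (SE 0.0722, limma adjusted p = 1.82e-05). JADE2, a subunit of a histone acetyltransferase complex, differed by -0.82 (SE 0.0535), but its other probe set gave 0.14. SCN2A, a neuronal sodium channel subunit, differed by -0.77 (SE 0.0794), and GPR85, an orphan receptor, by -0.75 (SE 0.0845). ATP8B4, another flippase-like transporter, differed by -0.72 (SE 0.0814). Other probe sets gave smaller or opposite changes for 4 further genes. HNMT, the histamine methyltransferase, differed by -1.22, with -0.44, 0.00 and 0.22 elsewhere. Of these, -0.44 was called lower and 0.22 was called higher (limma adjusted p = 0.00566 and 0.00683), so the probe sets of HNMT contradict each other. STK4, the Hippo pathway kinase MST1, differed by -1.02 (SE 0.223), with 0.06 elsewhere. SYNCRIP, an RNA-binding protein, differed by -0.72 (SE 0.165), with -0.26 to 0.10 elsewhere. IGHG1, an immunoglobulin heavy chain, differed by -0.72, with -0.06 to 0.10 elsewhere. The calls for STK4 and SYNCRIP were lost with the group as a random block, at adjusted p of 0.0785 and 0.116.

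Over all genes shifted alike, 213 of the higher ones had more than 1 probe set, and for 81 of them (38%) at least 1 other probe set was called the same way. For the lower ones these numbers were 119 and 60 (50.4%). This check was added after the data were seen.

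Of 38 interferon-stimulated genes measured, 10 were lower (26.3%) and 3 were higher (7.89%) in lentiviral cells, beside 11.7% and 16.1% of all genes. Shifted alike were 3, all lower (7.89%, beside 2.67%), and the median was -0.0549. With the group as a random block 1 was called lower and 0 higher. RSAD2, the antiviral enzyme viperin, read 9.14, 9.16 and 8.99 with empty vector, 9.10, 8.80 and 8.82 with pEGFP-CXXC5, 7.61, 7.55 and 7.38 with scrambled shRNA and 8.29, 8.13 and 8.25 with CXXC5 shRNA. Both lentiviral groups lay below both nucleofected groups, and the change was -1.13 (SE 0.0656, limma adjusted p = 1.05e-06), or 2.19-fold lower. The promoter stretch of RSAD2 at chr2:6877620-6877653, plus strand, 157 to 124 bases before the start, is shown for its match to the interferon response core, GAAA, any 2 bases and GAAA, which is in capitals and reads in reverse.
RSAD2: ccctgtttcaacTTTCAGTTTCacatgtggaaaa
That core was found in 19 of 28 genes of the list with a promoter sequence (67.9%) and in 3.57% of all genes. MX2, a restriction factor of the capsid of HIV-1, was 4.98 to 5.46 and 4.50 to 5.04, a change of -0.49 (SE 0.101) with overlapping arrays. TRIM22, an antiviral ubiquitin ligase, and GBP2, a guanylate-binding protein, were called at -0.75 and -0.49 without being shifted alike. The change of TRIM22 was -1.21 in the control pair and -0.30 in the CXXC5 pair, and that of GBP2 was -0.04 and -0.95. The calls for MX2, TRIM22 and GBP2 were lost with the random block, at limma adjusted p of 0.0764, 0.0702 and 0.171.

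Of 26 genes of nucleic acid sensing, 4 were higher (15.4%, beside 16.1% of all genes) and 6 were lower (23.1%, beside 11.7%). In each direction 2 were shifted alike (7.69%), beside 4.41% of all genes higher and 2.67% lower. MAVS, the mitochondrial adaptor of the RNA sensors, was 7.72 to 7.85 and 7.21 to 7.59, a change of -0.39 (SE 0.0575). SAMHD1, the dNTP hydrolase that restricts retroviruses, was 7.22 to 7.55 and 6.63 to 7.23. Its ranges touched, but it was called lower in each of the 4 pairwise comparisons, with a pooled change of -0.55 (SE 0.0729). The myeloid list had 4 of 32 genes shifted alike and lower (12.5%, beside 2.67% of all genes) and 1 alike and higher (3.12%, beside 4.41%). Of its genes 6 were called higher (18.8%) and 5 lower (15.6%), beside 16.1% and 11.7%, with a median of -0.034. Beside LY96, those shifted alike and lower included NCF4, a subunit of the phagocyte oxidase, at -0.59 (SE 0.0618). Another was MNDA, a nuclear protein of myeloid cells, at -0.58 (SE 0.087). MNDA read 3.38 to 4.17 in nucleofected and 2.93 to 3.35 in lentiviral arrays, close to the bottom of the deposited range.

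Large pooled changes also came from genes that only 1 group set apart. CXCL1, a neutrophil chemokine, was called at 1.48 (SE 0.0977), with 5.66 to 6.02 with empty vector, 6.13 to 6.33 with pEGFP-CXXC5, 9.22 to 9.54 with scrambled shRNA and 5.46 to 6.01 with CXXC5 shRNA. Scrambled shRNA alone was high, and the CXXC5 pair ran the other way, at -0.52. CXCL3, CXCL2 and the chemokine CCL4 were called at 1.14, 1.10 and 1.03, with 2.22, 2.32 and 2.08 in the control pair and 0.05, -0.12 and -0.01 in the CXXC5 pair. Of 30 NF-kappaB targets measured, 20 were called higher (66.7%) and 3 lower (10%), beside 16.1% and 11.7% of all genes. CXCL8 alone was shifted alike and higher (3.33%, beside 4.41%), and CCL5 alone alike and lower (3.33%, beside 2.67%). With the group as a random block 1 was called higher and 1 lower. The median of this list was 0.758 in the control pair and -0.106 in the CXXC5 pair. The 38 immediate early genes had 19 higher (50%) and 1 lower (2.63%), beside 16.1% and 11.7%, and 2 shifted alike, both higher (5.26%, beside 4.41%). Their medians were 0.369 in the control pair and -0.149 in the CXXC5 pair, and 1 was called, higher, with the random block. GDF15, a stress-induced cytokine of the ATF4 list, had 2.09 in the control pair and -0.14 in the CXXC5 pair. Its pooled change was 0.98, but its other probe set gave -0.01. Opposite signs that were called in both pairs were found for LTB, a TNF-family cytokine, at 3.16 and -1.36, for CXCL10 at 2.27 and -1.41, for the NF-kappaB target IER3 at 2.12 and -1.37, and for the early growth response factor EGR3 at 2.07 and -1.15.

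Metallothioneins, which bind zinc and copper, were called lower in lentiviral cells with the empty vector arrays alone high. MT1X read 10.12, 10.95 and 10.57 with empty vector, 6.53, 6.45 and 6.57 with pEGFP-CXXC5, 7.34, 7.14 and 7.23 with scrambled shRNA and 8.05, 8.13 and 7.94 with CXXC5 shRNA. The lentiviral arrays lay between the nucleofected groups, so the pooled -0.89 (SE 0.11) joins -3.31 in the control pair and 1.53 in the CXXC5 pair. MT1E, MT1G, MT2A and MT1H were called at -1.13, -0.90, -0.83 and -0.77, again with the empty vector arrays alone high. Other probe sets gave -0.96 for MT1X and -0.72 for MT1E, but 0.19 for MT1G. Near-identical copies of these genes share probes. Of 23 metallothionein and zinc genes, 8 were called lower (34.8%, beside 11.7% of all genes) and 1 higher (4.35%, beside 16.1%). Shifted alike was 1, lower (4.35%, beside 2.67%), and 1 was called, lower, with the random block. SLC30A1, the zinc exporter, had a pooled change of 0.07 at an adjusted p of 0.432, with -1.33 and 1.47 in the pairs. EVI2A, a membrane protein gene, was called at -0.85 (SE 0.0656) with pEGFP-CXXC5 alone high, at 8.09 to 8.26 against 6.27 to 6.73 in the other 9 arrays. ATP1B4 was called at -0.93 (SE 0.195) with near-equal changes of -0.94 and -0.92 in the pairs, and its arrays overlapped. Scrambled shRNA minus pEGFP-CXXC5 was -1.44 for ATP1B4, and CXXC5 shRNA minus empty vector was -0.43.

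**Figure D5:**
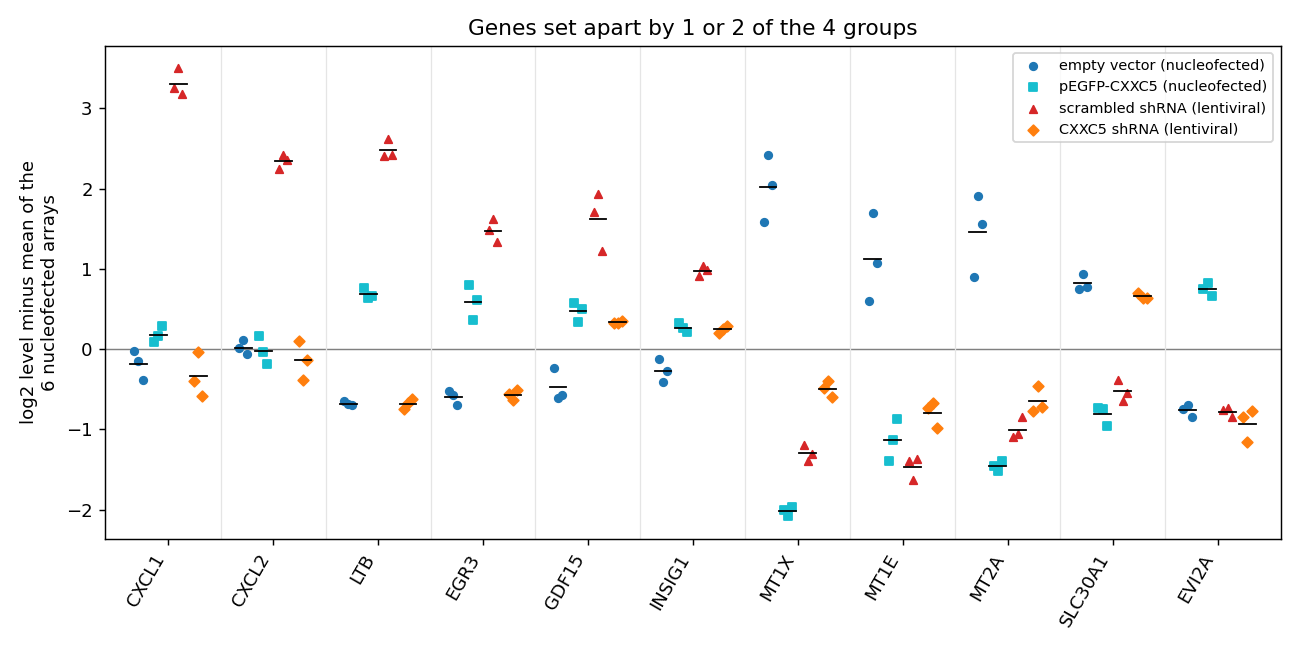
Log2 level of 11 genes in which the 4 groups did not divide by delivery, centred on the mean of the 6 nucleofected arrays. Points are arrays and black bars are means of 3. Scrambled shRNA alone is high for CXCL1 (9.22 to 9.54), empty vector alone for MT1X (10.12 to 10.95), and pEGFP-CXXC5 alone for EVI2A (8.09 to 8.26).

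The counts of housekeeping, growth and other lists are to be read beside the shares over all genes, 16.1% higher, 11.7% lower, 4.41% alike and higher and 2.67% alike and lower. G1/S and replication genes had 2 of 53 higher, 6 lower and 1 shifted alike each way. G2/M and spindle genes had 3 of 50 higher, 4 lower and 1 shifted alike. Ribosomal proteins had 3 of 46 higher and 1 lower, with a median of 0.000767, and oxidative phosphorylation subunits had 8 of 53 higher, 0 lower and 3 shifted alike, with a median of 0.0388. Of 20 Wnt targets, 5 were higher and 0 were lower, 3 of them shifted alike, VEGFA among them, with a median of 0.011. Of 22 cytosolic heat shock proteins, 0 were higher, 3 were lower and 0 were shifted alike. The host factors of lentivirus entry and integration had 4 of 24 higher, 5 lower and 1 shifted alike.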

How the data were processed

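The deposited log2 values, 1 per probe set and array on an Affymetrix 3′ expression array, were made by the authors with Affymetrix Expression Console, per the submitters' processing notes, and put on a common scale. The version and the summarisation are not given in the sources used; the log2 scale is inferred from the range of 2.07 to 14.4. Of 22277 probe sets, 62 controls were left out of the tests, and a platform table paired 19064 with 1 symbol, 1043 with several and 2108 with none. Symbols were looked up in RefSeq (GRCh38.p14), where 19052 matched by gene identifier. The brightest probe set of each gene over all arrays was used (11963 genes, 4310 with several probe sets).

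limma 3.58.1 in R 4.3.3 fitted 1 coefficient per group over 12 arrays (8 residual degrees of freedom), with two-sided tests and Benjamini-Hochberg adjustment over all genes at 0.05. The pooled contrast was the mean of both lentiviral groups minus the mean of both nucleofected groups. In simulated data for this contrast over 11963 genes, limma found 64% of the genes shifted by 0.3 log2, 92% of those by 0.6, 98% of those by 1 and 100% of those by 2, and it called 7 of 11763 genes left unshifted. The simulated arrays varied only within groups, and unshifted genes carried no delivery difference between group means. Few calls among them were therefore built in, and error from variation between groups was not measured. Separate cultures are not stated for the replicates, so the spread behind each p-value is that of these samples and may be technical. For arrays their number limits the precision.

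Genes were named by rule: the 15 largest pooled changes each way among genes shifted alike, up to 4 called members of each list, and the 5 largest each way among called genes not shifted alike and among differences between the pairs. Not every list member so taken is printed. The comparison, the lists and the rule were chosen with earlier results of these data known. The alternatives were 2 other scalings, leaving out the dimmest 40% of genes, other uses of probe sets, other models and thresholds, a replicate block, and leaving out each array. Figures were drawn with matplotlib 3.10.9.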

Additional observations from a re-analysis of the deposited data

Results flagged for a closer look

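The lentiviral difference had another size in the CXXC5 pair than in the control pair for 2442 genes (20.4%), by limma's test of that difference (adjusted p under 0.05). The same held for 40 of the 74 genes named in the text. Some of these were named for the size of that difference, so their share cannot be set against that of all genes. The values are CXXC5 pair minus control pair, in log2. Among genes shifted alike and higher, the difference was -2.45 for CXCL8, -1.22 for PRG2, -1.20 for ADM, -0.65 for DLK1, -0.63 for MSMO1, -0.53 for DDIT4, -0.50 for DDIT3 and -0.41 for CFB, all smaller in the CXXC5 pair. MMP1 at 0.79 and ATF3 at 0.74 had the larger change in the CXXC5 pair. Among genes shifted alike and lower, the decrease was deeper in the CXXC5 pair for PMCH at -1.82, PRSS2 at -1.16 and CCL5 at -0.82, and shallower for RSAD2 at 0.90, HNMT at 0.55, JADE2 at 0.47 and MDM2 at 0.39.

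Among named genes not shifted alike, the difference was -4.53 for LTB, -4.01 for CXCL1, -3.68 for CXCL10, -3.49 for IER3, -3.22 for EGR3, -2.44 for CXCL2, -2.23 for GDF15, -2.18 for CXCL3 and -2.09 for CCL4. It was -1.65 for EVI2A, -1.38 for CDKN1A, -1.11 for ID2, -1.27 for INSIG1, -0.90 for GBP2, -0.77 for PHLDA2, 0.91 for TRIM22 and 1.07 for TIGAR. The metallothioneins and the zinc exporter had the opposite sign, at 4.83 for MT1X, 3.26 for MT2A, 2.92 for MT1E, 2.87 for MT1H, 2.80 for SLC30A1 and 2.53 for MT1G.

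Of 162 sets of 6 arrays examined for a single array far from the others by Dixon's criterion, 9 held one, and chance gives about 1 in 20. Scrambled shRNA replicate 3 stood apart for the 3′ excess of dap (4.66), phe (2.66) and GAPDH (0.87) and for the genes SYNCRIP (9.42) and ID1 (6.81). Its level in the spike-ins and in GAPDH bears on labelling and RNA quality of this array, and the text gives counts without it. Other single arrays were scrambled shRNA replicate 2 for PMCH (5.28), pEGFP-CXXC5 replicate 1 for MEG3 (8.33), pEGFP-CXXC5 replicate 3 for the thr spike-in (1.90) and CXXC5 shRNA replicate 2 for EVI2A (6.27).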

How the results depend on the processing

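Counts are given as genes called in the pooled comparison, genes shifted alike and genes with a difference between the pairs, which were 3323, 848 and 2442. Leaving out each array gave 2484 to 3184, 847 to 1175 and 1864 to 2421. A fit of 2 groups gave 1899 pooled calls, and adding the group as a random block gave 366 pooled calls and 332 alike. Each probe set on its own gave 1338 alike. An adjusted p under 0.01 gave 1415 pooled and 1344 differences, and a 2-fold minimum gave 14, 9 and 217. Calls in all 4 pairwise comparisons numbered 184, and another probe set called the same way, an alternative added after the data were seen, held for 141. Median centring changed the share of differences with a positive sign, CXXC5 pair minus control pair, from 60.1% to 48.6%. The other counts, under quantile normalization, median centring, the filter on low genes, the mean of all probe sets, a trended robust prior and array weights, stayed within 1.5 times. With the replicate block the counts were 3626, 839 and 2630. The labels give the numbers no meaning, and the numbers were not taken to pair the arrays, since only 10 of 18 same-numbered pairs correlated over 0.1, with a range of -0.115 to 0.395. As 7 of 12 arrays correlated best with their own number, something shared by number cannot be dismissed. Of the 74 named genes, 21 lost their pooled call in the fit of 2 groups and 29 with the random block. In the other settings in which each was tested, the calls lost were those of ID1, without any of 3 arrays, and of IKZF1, in the mean of its probe sets, and 0 called genes changed direction. No scanner files were used here, so signal over background could not be examined, and small differences in dim genes rest on the number of arrays.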

Other observations

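BMP and TGF-beta targets had 11 of 31 measured genes called higher in lentiviral cells and 3 called lower, with 2 shifted alike and higher, 1 shifted alike and lower, and a median of 0.0683 log2. The called genes are 35.5% and 9.68% of the list, beside 16.1% and 11.7% of all genes. Those shifted alike are 6.45% and 3.23%, beside 4.41% and 2.67%. With the group as a random block 1 was called. Apart from SMAD6, described above, the named members divided by group. ID2, an inhibitor of bHLH factors, was 8.86 to 9.05 with empty vector, 9.24 to 9.56 with pEGFP-CXXC5, 9.83 to 10.06 with scrambled shRNA and 9.17 to 9.42 with CXXC5 shRNA, and was called at 0.46 (SE 0.0695, limma adjusted p = 0.00099). ID1, its relative, was called at -0.45 (SE 0.13, limma adjusted p = 0.0236), with pEGFP-CXXC5 alone high at 8.11 to 8.33. That call was lost without empty vector replicate 2 (adjusted p = 0.0508), pEGFP-CXXC5 replicate 2 (0.0516) or CXXC5 shRNA replicate 2 (0.0523).

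K562 cells lack functional p53. Of 23 measured genes of the p53 target list, 6 were called higher (26.1%) and 4 lower (17.4%), beside 16.1% and 11.7% of all genes. In each direction 1 gene (4.35%) was shifted alike, beside 4.41% and 2.67% of all genes. The list's median was -0.0498. SAT1 was the one shifted alike and higher. MDM2, the ubiquitin ligase of p53, was shifted alike and lower, at 5.96 to 6.16 in nucleofected and 5.43 to 5.96 in lentiviral arrays, a change of -0.39 (SE 0.0556), while its other probe sets gave -0.33 to 0.18. CDKN1A, the cell cycle inhibitor p21, was called at 0.49 (SE 0.055), with 1.18 in the control pair and -0.20 in the CXXC5 pair. TIGAR, a fructose bisphosphatase, was called at -0.45 (SE 0.0787), with -0.99 and 0.08. Of 25 erythroid and stem cell factors, 7 were higher (28%) and 4 lower (16%), beside 16.1% and 11.7% of all genes. With the random block 1 was called. LMO2, a bridging partner of TAL1 and GATA1, was shifted alike at 0.27 (SE 0.0429), from 9.39 to 9.56 in nucleofected and 9.65 to 9.84 in lentiviral arrays. IKZF1, the lymphoid factor Ikaros, was called at -0.33 (SE 0.054) with overlapping arrays, and its call was lost in the mean of its probe sets, at -0.10.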
